A study of Mus musculus with 30 samples.

Results

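The DNA replication genes described here are 44 genes, of 24957 in each of the deposited tables, that were listed by name for their known part in copying the genome. They were followed through 30 poly(A)-selected RNA-seq libraries of mouse spleen and lymph node. The study asked how imiquimod, an agonist of the innate RNA sensor TLR7, and the loss of either of a pair of peptidylarginine deiminases, enzymes that turn protein arginine into citrulline, change gene expression in lymphoid organs. The 18 spleen libraries were from wild-type mice (WT, called FVB in the sample titles), Pad2-/- mice and Pad4-/- mice, each as a control and after imiquimod, with 3 libraries in each of the 6 groups. The 12 lymph node libraries were all from imiquimod-treated mice, 4 each of WT, Pad2-/- and Pad4-/-, so the lymph node had no control group. The labels give no age, sex, dose or route, and the written protocol speaks of treated mice only, but 9 spleen libraries carry the agent label control, and that label was followed here. Nothing says that the replicates of a group came from separate animals, so a p-value measures the spread between these libraries, which may be technical.

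Each chromosome is copied from origins that are first licensed: the origin recognition complex, with Cdc6 and Cdt1, loads a ring of MCM proteins, and geminin (Gmnn) holds Cdt1 in check once copying has begun. Cdc45 and the GINS complex then turn the ring into a moving helicase, polymerase alpha with primase lays primers, and polymerases delta and epsilon extend them on the sliding clamp Pcna. Ribonucleotide reductase and other enzymes supply the nucleotides, and chromatin assembly factor 1 packs the new strands. In spleen and lymph node most small lymphocytes are at rest, while blast cells of the immune response and blood-forming precursors divide, and the transcripts of many of these genes peak around the start of S phase under E2F transcription factors.

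Because the members moved together in the spleen, their promoters are shown first. RefSeq promoter sequence (build GRCm38.p6) was available for 35 of the 44 members. For each gene the 250 bases before the first listed start were searched on both strands. Mcm7, Pold2, Fen1 and Uhrf1 had 2 listed promoters and Lig1 had 3, and their further starts were not searched. The E2F site was written as TTTCCCGC, TTTCGCGC, TTTGGCGC or TTTGCCGC. At least 1 such site lay in 8 of 35 members (22.9%), against 517 of 27025 promoters in the whole table (1.91%) and 4 of 33 other replication genes (12.1%). These 8 members were Orc1, Cdc6, Mcm5, Mcm6, Mcm7, Gins3, Pola1 and Rfc3. The CCAAT box (CCAAT) was found in 23 of 35 members (65.7%) and in 34.5% of all promoters. The cell cycle homology region (TTTGAA) was found in 4 of 35 (11.4%) and in 16.3% of all promoters. The promoters printed here are those of the 6 matching members with the largest response of the WT spleen to imiquimod, and, for contrast, that of Pold1, the member with the smallest response, which held no match. Each line gives 100 bases, 5′ to 3′ along the gene's strand, with the E2F matches in capitals.
Cdc6, chr11:98907983-98908082, plus strand: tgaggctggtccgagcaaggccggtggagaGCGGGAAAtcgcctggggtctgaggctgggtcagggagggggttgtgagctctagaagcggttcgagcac
Mcm6, chr1:128359746-128359845, minus strand: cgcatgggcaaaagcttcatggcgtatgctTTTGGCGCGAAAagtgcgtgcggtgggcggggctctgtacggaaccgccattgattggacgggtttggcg
Orc1, chr4:108579354-108579453, plus strand: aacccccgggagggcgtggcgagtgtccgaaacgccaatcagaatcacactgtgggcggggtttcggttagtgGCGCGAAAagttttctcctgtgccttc
Mcm5, chr8:75109326-75109425, plus strand: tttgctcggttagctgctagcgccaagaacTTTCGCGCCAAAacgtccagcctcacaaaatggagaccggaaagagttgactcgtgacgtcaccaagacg
Mcm7, chr5:138171979-138172078, minus strand: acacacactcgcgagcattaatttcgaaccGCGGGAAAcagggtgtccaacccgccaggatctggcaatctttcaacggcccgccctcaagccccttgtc
Pola1, chrX:93632224-93632323, minus strand: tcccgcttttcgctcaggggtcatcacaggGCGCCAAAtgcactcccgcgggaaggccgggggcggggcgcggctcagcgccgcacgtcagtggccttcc
Pold1, chr7:44548816-44548915, minus strand: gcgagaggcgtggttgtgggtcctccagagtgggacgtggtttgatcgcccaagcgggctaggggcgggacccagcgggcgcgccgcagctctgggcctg
The match began 138 bases before the first listed start in Cdc6 and Pola1, 165 bases before it in Mcm7 and 27 bases before it in Orc1. In each of these genes the stretch shown lies within the annotated span of the gene. It is thus upstream of the listed start but not of the whole gene. Mcm6 held a pair of overlapping matches, beginning 110 and 106 bases before its start, and a further one beginning at 47 bases, which runs 1 base past the stretch shown and is left in lower case. In Mcm5 the pair of overlapping matches began 153 and 149 bases before the start. A match is only a stretch of letters. The median log2 response of the WT spleen to imiquimod was 2.15 for the 8 members with a match (0.82 to 3.54) and 2.12 for the 27 without (0.20 to 4.06).

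The level of the whole list was taken as the mean of log2(RPKM + 0.5) over the 44 members in each library, where RPKM is a read count scaled to transcript length and to library size. WT control spleens had mean log2 levels of 2.99, 3.03 and 2.88, and WT imiquimod spleens of 5.01, 4.76 and 5.18. Pad2-/- spleens went from 3.10, 3.14 and 3.04 to 5.02, 4.54 and 4.70, and Pad4-/- spleens from 2.95, 2.99 and 2.91 to 4.43, 4.62 and 4.61. All 9 imiquimod spleens thus lay above all 9 control spleens, and the control libraries of the 3 genotypes lay close to each other. The spread between libraries was wider after imiquimod: the SD of the mean log2 level was 0.0786 in WT controls and 0.213 in WT imiquimod spleens, 0.0534 and 0.244 in Pad2-/-, and 0.0412 and 0.105 in Pad4-/- (n = 3 each). This spread was shared by the members: WT imiquimod replicate 3 was the highest of its group for 41 of the 44 members and replicate 2 the lowest for 43. Pad2-/- imiquimod replicate 1 was the highest of its group for 43 members. In bulk tissue, more cells of a dividing type and more RNA per cell cannot be told apart.

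**Figure D1:**
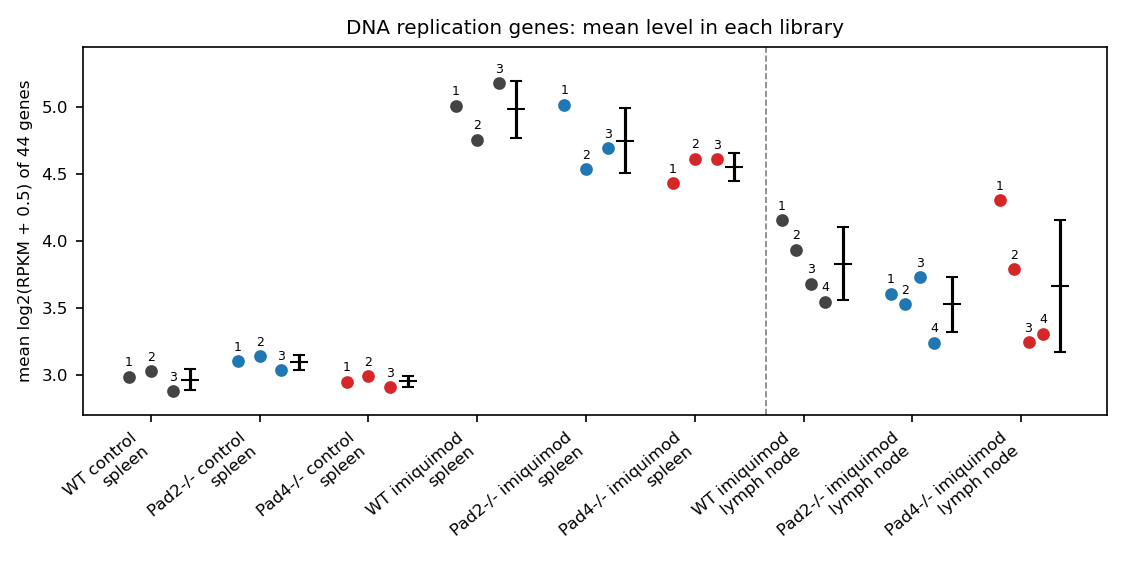
Mean log2(RPKM + 0.5) of the 44 DNA replication genes in each of the 30 libraries, by group, with the replicate number beside each point and the group mean ± SD as a bar; the dashed line separates the tissues, which are separate tables and were not tested against each other. All 9 imiquimod spleens (4.43 to 5.18) lie above all 9 control spleens (2.88 to 3.14), and the lymph node libraries range from 3.24 to 4.30.

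The members kept widely different levels. The median member stood at 8.73 RPKM in WT control spleens and at 32.2 RPKM in WT imiquimod spleens, at 9.44 and 27.0 RPKM in Pad2-/-, and at 7.96 and 24.5 RPKM in Pad4-/-. Pcna, the sliding clamp that tethers the polymerases, had the highest RPKM of the list in all 9 groups. The lowest RPKM was that of Orc1, the large ATPase subunit of the origin recognition complex, in the control spleens and lymph nodes, and that of Mcm8, a helicase of recombination repair, in the imiquimod spleens. Rfc2, a small clamp loader subunit, was second to Pcna in RPKM in the control spleens, and Rrm2, the small subunit of ribonucleotide reductase, took that place in the imiquimod spleens. All 44 members passed the filter on low values in both tissues, and 40 of them had at least 1 RPKM in every spleen library. The other 4 were Orc1, Cdc6, Mcm8 and Mcm10, which were below 1 RPKM in some or all control spleens.

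After imiquimod 43 of the 44 members rose in WT spleen, 43 in Pad2-/- spleen and 43 in Pad4-/- spleen, and 0 fell, by limma with an adjusted p under 0.05. Of all 11982 genes tested, 40.3% were called higher in WT, 36.3% in Pad2-/- and 33.9% in Pad4-/-. The median log2 change of the members was 1.98 in WT, where that of all genes was 0.06, 1.66 in Pad2-/- (all genes -0.02) and 1.57 in Pad4-/- (all genes -0.04). The exception in all 3 genotypes was Pold1, the catalytic subunit of polymerase delta. Several cell type markers moved with these changes in WT spleen. The summed RPKM of 12 mitotic genes was 28.7 to 39.0 in control libraries and 422 to 533 after imiquimod, and all 12 rose, with a median log2 change of 3.51. All of the measured erythroblast (7 of 8 listed), neutrophil precursor (5), germinal centre B cell (5), plasma cell (5) and megakaryocyte (4) markers rose, while all 5 B cell and all 6 T cell markers fell. The summed RPKM of the erythroblast markers was 35.5 to 41.2 before and 369 to 996 after, and that of the B cell markers 2334 to 2731 before and 717 to 1119 after. No marker in the table was at 0 in all WT libraries. The part of these cells in the result was not tested.

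**Figure D2:**
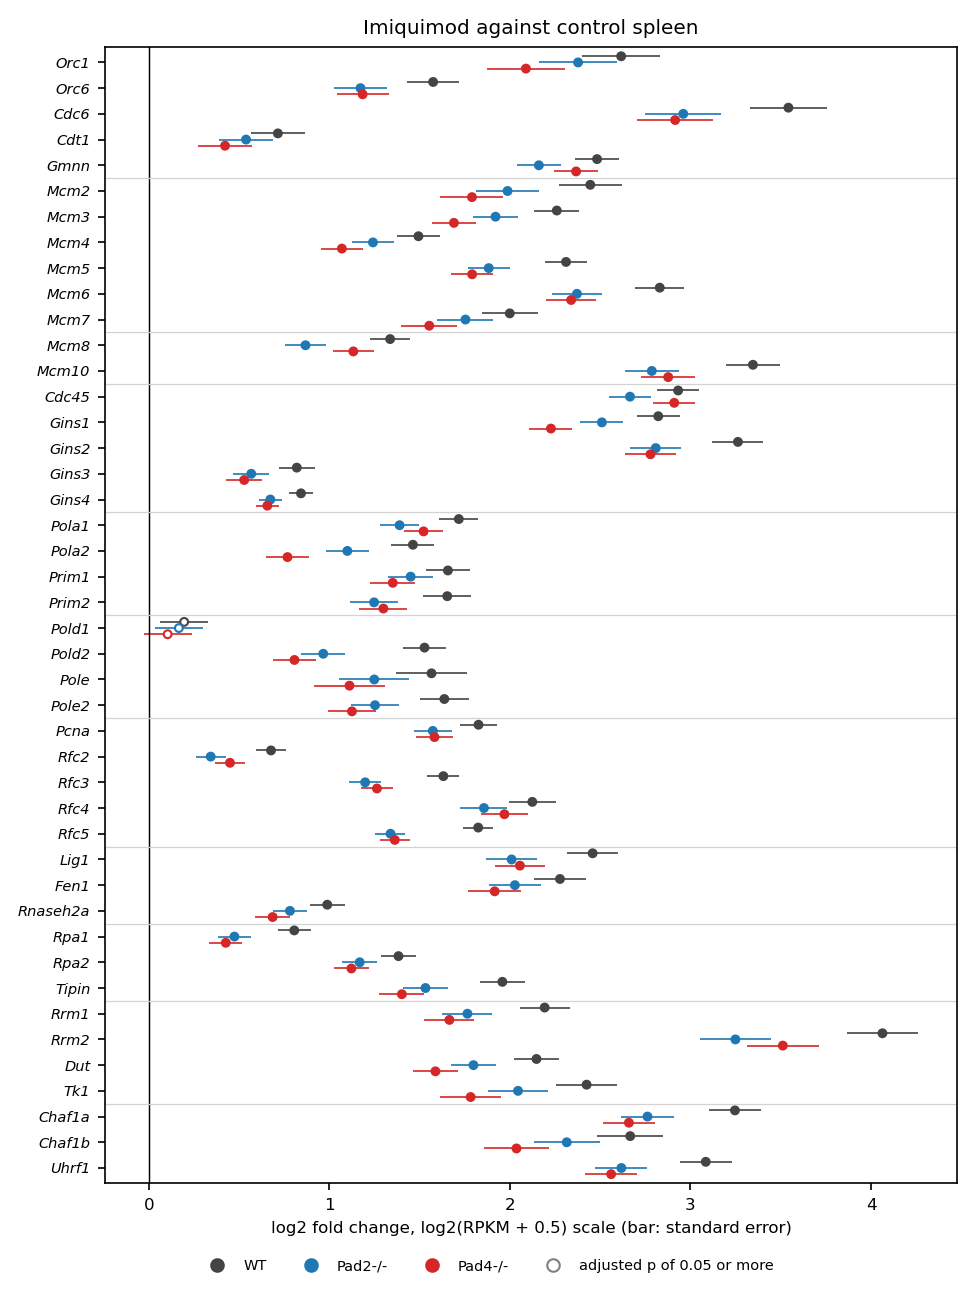
Log2 change from control to imiquimod spleen (horizontal axis, log2(RPKM + 0.5) scale) of each of the 44 members in WT, Pad2-/- and Pad4-/-, ordered by role with grey lines between roles; bars are standard errors and open points have an adjusted p of 0.05 or more. Only the 3 points of Pold1 are open, and Rrm2 lies farthest right in WT at 4.06.

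Among the origin licensing genes all 5 rose in each genotype, with a median log2 change of 2.48 in WT. Cdc6, the ATPase that helps load the MCM ring, had 1.02, 1.15 and 0.886 RPKM in WT controls and 18.5, 12.8 and 21.3 RPKM after imiquimod. The groups were far apart, and the log2 change was 3.54 ± 0.21 (SE; adjusted p = 1.6e-09). In Pad2-/- Cdc6 went from 1.41, 1.26 and 1.40 to 20.5, 9.37 and 13.97 RPKM, and in Pad4-/- from 1.03, 0.878 and 0.826 to 9.26, 10.2 and 11.05 RPKM. Cdt1, its partner in loading, started far higher, at 26.2, 24.3 and 22.6 RPKM in WT controls, and reached only 39.9, 32.7 and 49.9 RPKM. Its log2 change was 0.71 ± 0.15 in WT (adjusted p = 0.000541), 0.54 ± 0.15 in Pad2-/- (adjusted p = 0.00473) and 0.42 ± 0.15 in Pad4-/- (adjusted p = 0.021). The Pad4-/- call was lost without imiquimod replicate 2 (adjusted p = 0.0812), imiquimod replicate 3 (0.0560) or control replicate 2 (0.0678). Gmnn, the inhibitor of Cdt1, rose more: from 9.39, 8.89 and 8.39 to 52.9, 48.3 and 54.8 RPKM in WT, a log2 change of 2.48 ± 0.12 (adjusted p = 1.78e-10). In Pad4-/- Gmnn went from 7.04, 8.83 and 6.58 to 40.1, 40.1 and 40.9 RPKM, a log2 change of 2.37 ± 0.12 (adjusted p = 5.01e-10). Orc1 went from 0.546, 0.587 and 0.454 to 6.03, 4.26 and 7.56 RPKM in WT (log2 change 2.62 ± 0.22, adjusted p = 5.57e-08). Its mean was 0.465 to 0.640 RPKM in the control groups, so it passed the filter on low values only through imiquimod libraries. Orc6, a small subunit of the same complex as Orc1, started at 5.74 to 6.07 RPKM in WT and reached 15.05 to 21.8 RPKM.

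The 6 subunits of the MCM helicase, Mcm2 to Mcm7, form a ring with 1 copy of each, and all 6 rose in each genotype. Their median log2 change was 2.29 in WT, 1.90 in Pad2-/- and 1.74 in Pad4-/-. Mcm7 had the highest RPKM of the ring in WT controls, at 20.9, 22.8 and 21.6, and Mcm6 the lowest, at 7.70, 7.90 and 6.90. After imiquimod Mcm7 reached 90.5, 72.1 and 106 RPKM (log2 change 2.00 ± 0.15, adjusted p = 2.63e-08) and Mcm6 59.7, 46.5 and 64.1 RPKM (log2 change 2.83 ± 0.14, adjusted p = 1.69e-10). The subunit levels thus came closer together: the highest mean RPKM was 2.90 times the lowest in WT controls and 1.96 times in WT imiquimod spleens, 2.68 and 2.04 times in Pad2-/-, and 2.91 and 1.93 times in Pad4-/-. Of the other subunits, Mcm2 went from 11.5 to 13.8 RPKM to 55.1 to 89.4 RPKM in WT, Mcm3 from 13.98 to 16.9 RPKM to 64.1 to 88.8 RPKM, and Mcm5 from 16.8 to 18.2 RPKM to 75.3 to 104 RPKM. Mcm4 had the smallest change of the ring in WT, with a log2 change of 1.49, and the lowest mean RPKM of the ring after imiquimod, where Mcm5 had the highest. Mcm10, which is not part of the ring and helps to switch it on, went from 0.858, 0.980 and 0.758 to 12.7, 11.3 and 16.6 RPKM in WT, a log2 change of 3.35 ± 0.15 (adjusted p = 8.53e-11). Mcm8 stayed low, with 1.12 to 1.40 RPKM before and 3.53 to 4.23 RPKM after.

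The 5 genes of helicase activation fell into a strongly and a weakly responding set. Cdc45 went from 2.40, 2.48 and 2.22 to 20.7, 20.3 and 23.1 RPKM in WT, a log2 change of 2.93 ± 0.12 (adjusted p = 4.33e-11). In Pad2-/- Cdc45 went from 2.60, 2.74 and 2.25 to 23.3, 16.8 and 16.6 RPKM (2.67 ± 0.12, adjusted p = 2.65e-10), and in Pad4-/- from 1.61, 2.12 and 1.88 to 17.2, 17.6 and 16.96 RPKM (2.91 ± 0.12, adjusted p = 9.13e-11). The groups did not overlap in any genotype. Of the 4 GINS subunits, Gins2 went from 2.72, 2.37 and 1.75 to 24.8, 25.5 and 27.4 RPKM in WT (log2 change 3.26 ± 0.14, adjusted p = 7.08e-11), and Gins1 from 2.20, 2.29 and 1.81 to 17.1, 16.9 and 19.6 RPKM (2.82 ± 0.12, adjusted p = 5.81e-11). Their partner Gins4 was already at 16.3, 17.99 and 16.5 RPKM in WT controls and reached 30.8, 29.6 and 31.8 RPKM, a log2 change of 0.84 ± 0.064 (adjusted p = 2.21e-08). Gins3 changed by a log2 value of 0.82 ± 0.10. The 4 proteins form a complex with 1 copy of each. The transcripts of Gins1 and Gins2 were far below that of Gins4 in the control spleens and nearer to it after imiquimod.

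Among the polymerases, the primase and polymerase alpha genes changed by much the same amount, with log2 changes from 1.46 to 1.72 in WT. Pola2, the regulatory B subunit of polymerase alpha, had 12.3, 12.1 and 11.5 RPKM in WT controls and 34.1, 27.8 and 41.0 RPKM after imiquimod (log2 change 1.46 ± 0.12, adjusted p = 4.3e-08). Pola1, the catalytic subunit, had 2.50, 2.38 and 2.20 RPKM before and 9.24, 7.84 and 9.71 RPKM after (1.72 ± 0.11, adjusted p = 2.82e-09). Pold2, the accessory subunit of polymerase delta, went from 15.7, 15.3 and 12.8 to 41.3, 35.8 and 53.0 RPKM in WT (1.53 ± 0.12, adjusted p = 3.4e-08). Pole2, the accessory subunit of polymerase epsilon, went from 2.58, 3.07 and 2.76 to 9.78, 8.52 and 11.1 RPKM (1.64 ± 0.14, adjusted p = 5.16e-08). Pole, the catalytic subunit of polymerase epsilon, rose but remained among the lowest members, at 1.48 to 1.74 RPKM before and 4.39 to 6.98 RPKM after. Pold1 was different. It had 23.7, 23.6 and 21.5 RPKM in WT controls and 27.7, 21.1 and 31.01 RPKM after imiquimod, and the groups overlapped. Its log2 change was 0.20 ± 0.13 in WT (adjusted p = 0.194), 0.17 ± 0.13 in Pad2-/- (adjusted p = 0.266) and 0.10 ± 0.13 in Pad4-/- (adjusted p = 0.491). With array weights, which let limma give less weight to libraries that fit their group less well, Pold1 was called higher in all 3 genotypes (adjusted p = 0.0276 in WT, 0.00166 in Pad2-/- and 0.00752 in Pad4-/-). Leaving out WT imiquimod replicate 2 also gave a call, at a log2 change of 0.35 (adjusted p = 0.0190).

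Pcna rose from 104, 99.8 and 103 to 379, 329 and 387 RPKM in WT, a log2 change of 1.83 ± 0.10 (adjusted p = 1.02e-09), and by log2 changes of 1.57 in Pad2-/- and 1.58 in Pad4-/-. Rfc4, a clamp loader subunit, went from 6.63, 6.24 and 6.16 to 30.2, 26.3 and 31.7 RPKM in WT (2.12 ± 0.13, adjusted p = 2.11e-09). Rfc2, of the same loader, went only from 46.8, 46.4 and 47.2 to 80.03, 71.2 and 74.5 RPKM (0.68 ± 0.082, adjusted p = 3.05e-06). Its log2 change in Pad2-/-, 0.34 ± 0.082 (adjusted p = 0.00159), was no longer called after quantile normalization (0.044, adjusted p = 0.602). The genes that finish Okazaki fragments rose in all genotypes. Fen1, the flap nuclease, went from 11.1, 11.4 and 9.96 to 55.8, 47.0 and 61.4 RPKM in WT (2.28 ± 0.15, adjusted p = 3.24e-09). Rnaseh2a, the catalytic subunit of the nuclease that removes RNA from DNA, changed less, from 8.86 to 9.90 RPKM to 16.8 to 21.8 RPKM in WT. Lig1, the ligase that seals the fragments, went from 7.68, 8.38 and 6.73 to 44.9, 37.2 and 50.4 RPKM (2.46 ± 0.14, adjusted p = 9.81e-10).

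Proteins of single-stranded DNA and fork protection had the lowest class median in WT, a log2 change of 1.38. In the knockouts the polymerases delta and epsilon had a lower class median than these, with 1.11 in Pad2-/- and 0.96 in Pad4-/-. Rpa1, the large subunit of the single-strand binding complex, went from 32.7, 34.3 and 32.9 to 63.7, 50.1 and 63.0 RPKM in WT (0.81 ± 0.092, adjusted p = 1.57e-06). Rpa2, the middle subunit, went from 16.1 to 16.8 RPKM to 38.6 to 48.7 RPKM. Tipin, a fork protection factor, went from 7.34, 7.55 and 6.28 to 29.9, 23.3 and 34.2 RPKM (1.96 ± 0.12, adjusted p = 3.1e-09). At the other end stood the chromatin genes, with a median of 3.08. Uhrf1, which guides maintenance methylation to new DNA, went from 4.78, 5.17 and 4.39 to 45.4, 37.3 and 51.0 RPKM in WT (3.08 ± 0.14, adjusted p = 1.19e-10). Chaf1a, the large subunit of chromatin assembly factor 1, went from 2.07, 2.13 and 1.49 to 21.7, 18.9 and 26.1 RPKM (3.25 ± 0.15, adjusted p = 8.53e-11). Rrm2 had the largest change of all 44 members in each genotype. It went from 5.70, 6.68 and 5.18 to 104, 80.6 and 139 RPKM in WT, a 16.7-fold rise on the log2(RPKM + 0.5) scale (4.06 ± 0.20, adjusted p = 1.93e-10), and by log2 changes of 3.25 ± 0.20 in Pad2-/- and 3.51 ± 0.20 in Pad4-/-. The other genes of nucleotide supply rose less in WT: Rrm1 from 11.7 to 12.8 RPKM to 46.7 to 69.3 RPKM, Dut, which removes dUTP, from 10.3 to 11.7 RPKM to 41.2 to 58.8 RPKM, and Tk1, thymidine kinase, from 8.83 to 11.4 RPKM to 47.9 to 63.7 RPKM.

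The order of the members by response was much alike in the 3 genotypes, whose responses share no library. Across the 44 members, Pearson's r of the log2 changes was 0.991 between WT and Pad2-/-, 0.980 between WT and Pad4-/-, and 0.982 between Pad2-/- and Pad4-/-. This is a description over genes, which are not independent replicates. Unequal responses changed the balance of transcripts within complexes, seen in ratios of RPKM within a library, whose pairs were chosen after the values were seen. The ratio of Rrm2 to Rrm1, the small and large subunits of ribonucleotide reductase, was 0.483 ± 0.0400 in WT controls and 1.85 ± 0.145 in WT imiquimod spleens (SD, n = 3), and went from 0.712 to 2.03 in Pad2-/- and from 0.529 to 1.99 in Pad4-/-. The ratio of Gmnn to Cdt1 went from 0.365 ± 0.00655 to 1.30 ± 0.190 in WT, from 0.421 to 1.33 in Pad2-/- and from 0.319 to 1.28 in Pad4-/-. The transcript of the inhibitor was thus below that of its target in RPKM in all 9 control spleens and above it in all 9 imiquimod spleens. The ratio of Gins2 to Gins4 went from 0.135 ± 0.0305 to 0.842 ± 0.0323 in WT, 0.138 to 0.707 in Pad2-/- and 0.125 to 0.646 in Pad4-/-. Pold2 to Pold1 went from 0.635 ± 0.0359 to 1.63 ± 0.123 in WT, 0.768 to 1.35 in Pad2-/- and 0.772 to 1.27 in Pad4-/-. The ratio of Pole2 to Pole stayed alike in WT, at 1.77 before and 1.73 after. So did that of Prim1 to Prim2, the primase subunits, at 1.57 before and 1.54 after. The other pairs computed moved in WT. Gins1 to Gins4 rose from 0.124 to 0.580 and Orc1 to Orc6 from 0.0891 to 0.310. Chaf1b to Chaf1a fell from 1.56 to 0.967, Pola2 to Pola1 from 5.08 to 3.82, and Mcm5 to Mcm6 from 2.34 to 1.58.

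**Figure D3:**
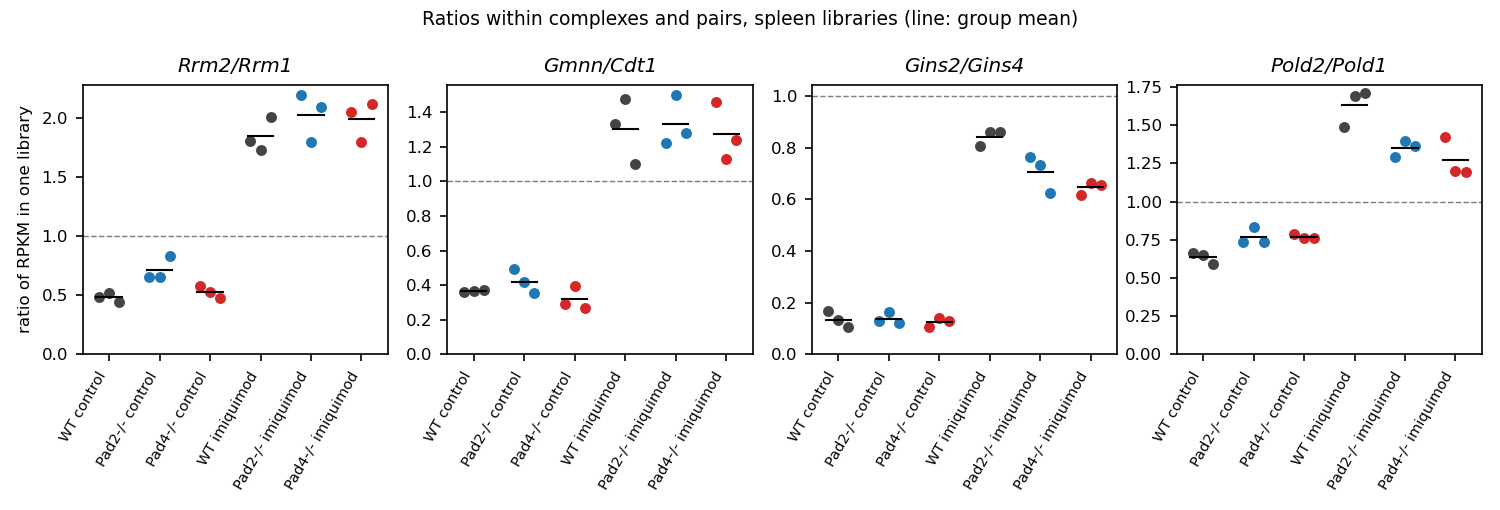
Ratio of RPKM within each spleen library for 4 pairs of members (Rrm2 to Rrm1, Gmnn to Cdt1, Gins2 to Gins4, Pold2 to Pold1), with points for libraries, black lines for group means and a dashed line at equal RPKM. In each pair the 9 imiquimod libraries lie above the 9 control libraries, and the Gins2 to Gins4 ratio stays under 1.

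Not every gene of replication rose. A further 38 replication genes outside the 44 were measured in the spleen, and 26 rose and 5 fell in WT, with a median log2 change of 0.90. In Pad2-/- 25 rose and 6 fell (median 0.68), and in Pad4-/- 26 rose and 6 fell (median 0.65). Of all genes tested, 40.3% were called higher and 33.2% lower in WT, 36.3% and 36.7% in Pad2-/-, and 33.9% and 36.1% in Pad4-/-. Among the smallest p-values in WT were those of Asf1b, a histone chaperone (log2 change 2.73 ± 0.10, adjusted p = 3.31e-11), Pclaf, a partner of Pcna (3.61 ± 0.14), and Dbf4, the activator of the Cdc7 kinase (1.56 ± 0.084). Rrm2b, the p53-induced alternative to Rrm2, went the other way, from a mean of 8.29 RPKM in WT controls to 3.65 RPKM after imiquimod (-1.10 ± 0.21). Mcm9, the partner of Mcm8, changed by -0.43 in WT, Donson, a replication fork factor, by -0.41, Pole4, a histone-fold subunit of polymerase epsilon, by -0.35, and Orc4, of the origin recognition complex, by -0.33, all called lower. Orc3, of the same complex, was called lower in Pad2-/- (-0.29) and Pad4-/- (-0.23).

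Before imiquimod no member was called between the knockouts and WT, although most members stood slightly higher in Pad2-/-. The targeted genes were checked first. Padi2 had 9.77, 10.46 and 9.77 RPKM in WT control spleens and 1.20, 1.11 and 1.09 RPKM in Pad2-/- control spleens. Padi4 had 1.23, 2.26 and 1.20 RPKM in WT controls and 0.0975, 0.156 and 0.113 RPKM in Pad4-/- controls, so each was low in the knockout of its name. After imiquimod Padi2 had 4.74 to 5.23 RPKM in WT and 0.468 to 0.673 RPKM in Pad2-/-, and Padi4 had 8.16 to 25.3 RPKM in WT and 0.0693 to 0.259 RPKM in Pad4-/-. In control spleens 0 of the 44 members passed limma's threshold in Pad2-/- against WT, where 0.142% of all genes were called, and 0 in Pad4-/- against WT, where 0.150% were called. At an unadjusted p under 0.05 there was 1 member in each, where 1.96% of all genes had such a p in Pad2-/- and 6.69% in Pad4-/-. The first was Rrm2, with 9.11, 9.43 and 10.6 RPKM in Pad2-/- controls against 5.70, 6.68 and 5.18 RPKM in WT controls. The groups did not overlap, and the log2 difference was 0.69 ± 0.20 (unadjusted p = 0.00327, adjusted p = 0.783). Rrm2 was called with array weights (adjusted p = 0.00417) and in a fit of these groups alone (adjusted p = 0.0234). Of all genes, 99 and 45 were called in these fits. Next by p were Mcm10, at a log2 difference of 0.32, and Lig1, at 0.28. In Pad4-/- the member was Cdc45, with a log2 difference of -0.28 ± 0.12 (unadjusted p = 0.0306, adjusted p = 0.724), followed by Rfc4 at -0.27 and Gmnn at -0.24. The median log2 difference of the members was 0.12 in Pad2-/- (all genes 0.03) and -0.02 in Pad4-/- (all genes 0.05). The first was 0.08 without WT replicate 3 and 0.08 after quantile normalization. In Pad2-/- controls 39 of 44 members had a difference above 0, and 17 did not overlap with WT, where 15.3% of all genes did not overlap in either direction. In Pad4-/- controls 18 of 44 were above 0 and 9 did not overlap, where 35.9% of all genes did not. Mitotic markers moved with the Pad2-/- difference: their summed RPKM was 46.2 to 51.1 in Pad2-/- and 28.7 to 39.0 in WT controls, and all 12 had differences above 0, with 11 at an unadjusted p under 0.05 and 0 called. For the erythroblast markers the summed RPKM was 51.1 to 87.9 in Pad2-/- and 35.5 to 41.2 in WT controls, with 0 of 7 called. The part of these markers in the result was not tested. These comparisons share the WT libraries, as do those after imiquimod.

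After imiquimod, 19 of the 44 members were lower in Pad4-/- than in WT spleen by limma, where 5.69% of all genes were called lower. An unadjusted p under 0.05 was found for 42 members and for 23.8% of all genes. All 44 had a log2 difference below 0, with a median of -0.43 against -0.04 for all genes, and every Pad4-/- library was below every WT library for 36 members. Over all genes, 19.2% did not overlap between these groups, in either direction. The call count rests on single libraries: it was 0 without WT replicate 3, 35 without WT replicate 2, 11 without WT replicate 1, and 3, 11 and 6 without Pad4-/- replicates 1, 2 and 3. Of all genes, 139 were called in either direction without WT replicate 3 and 1507 without WT replicate 2, against 871 in the main fit. Without WT replicate 3, 28 members had an unadjusted p under 0.05, and the median log2 difference was -0.34, with all 44 still below 0. In a fit of these groups alone the count was 0, with 36 at an unadjusted p under 0.05, and fewer libraries to estimate the spread from. The Pad4-/- imiquimod spleens also had less of the mitotic markers: their summed RPKM was 377, 374 and 370, against 450, 422 and 533 in WT. Of these 12 markers 1 was called lower, all 12 had log2 differences below 0, and the median was -0.32. The summed RPKM of the erythroblast markers was 884, 202 and 294 in Pad4-/- and 501, 369 and 996 in WT, with 0 of 7 called. For the B cell markers the summed RPKM was 908 to 1467 in Pad4-/- and 717 to 1119 in WT, with 5 of 5 differences above 0 and 1 called higher. That of the T cell markers was 337 to 416 in Pad4-/- and 244 to 319.9 in WT, with 5 of 6 above 0 and 1 called higher. All 5 plasma cell and all 5 germinal centre B cell markers had differences above 0 (medians 0.55 and 0.51), and all 4 megakaryocyte and all 5 neutrophil precursor markers below 0 (medians -1.08 and -0.65), with 0 called in these lists. The part of these markers in the result was not tested.

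**Figure D4:**
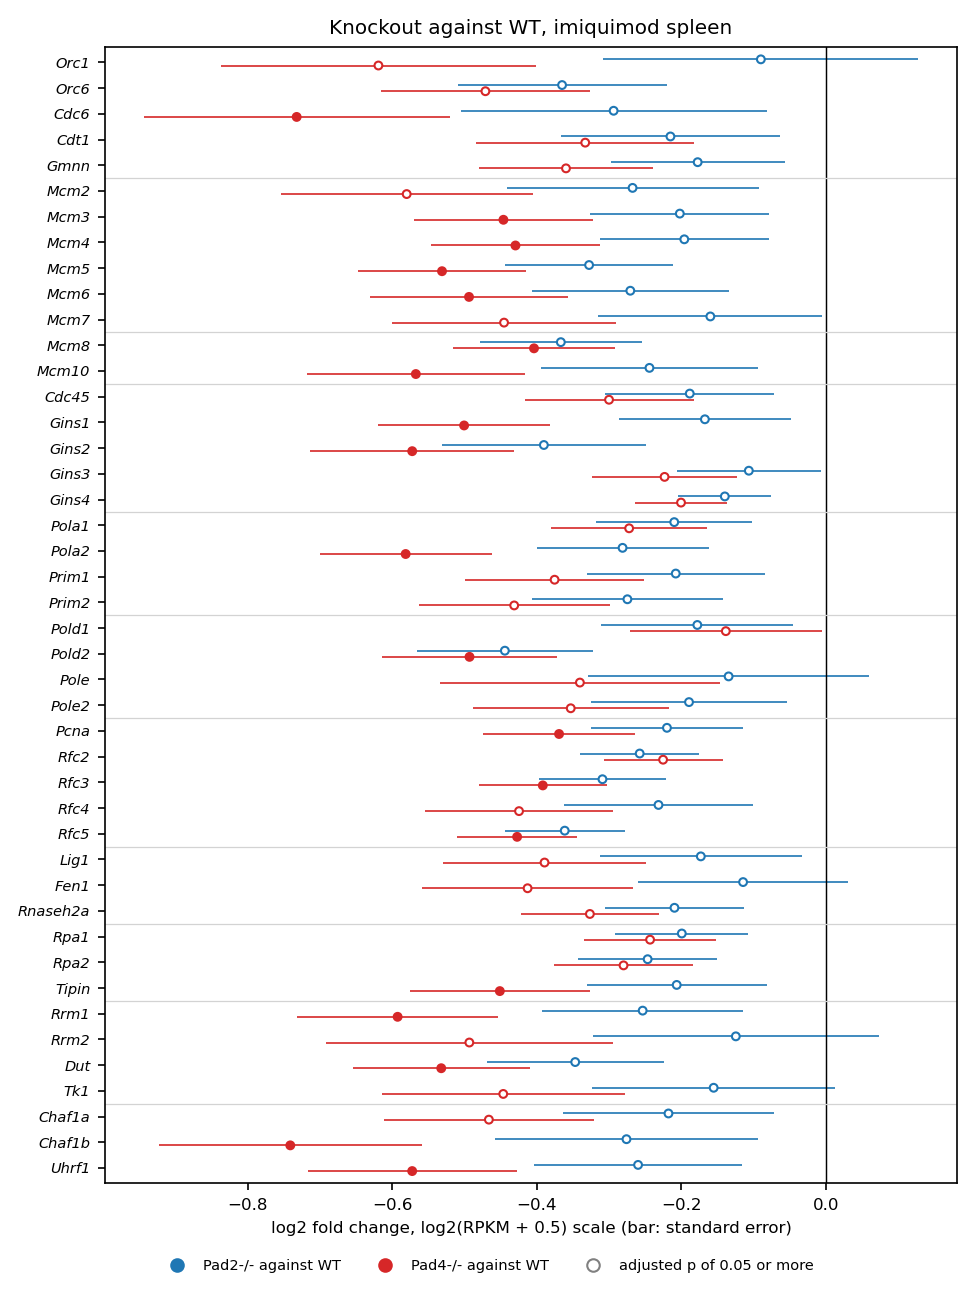
Log2 difference from WT in imiquimod spleen (horizontal axis, log2(RPKM + 0.5) scale) of each of the 44 members in Pad2-/- and Pad4-/-, with standard errors as bars; filled points have an adjusted p under 0.05. All points lie below 0, the medians are -0.22 in Pad2-/- and -0.43 in Pad4-/-, and filled points are found for 19 members, all in Pad4-/-; both sets share the same WT libraries.

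Rfc5, a clamp loader subunit, had the smallest p of the members in both knockouts. It had 32.7, 30.4 and 37.9 RPKM in WT imiquimod spleens, 27.9, 25.2 and 24.9 RPKM in Pad2-/- and 22.95, 26.3 and 25.3 RPKM in Pad4-/-. Both knockouts lay wholly below WT. Its log2 difference was -0.43 ± 0.083 in Pad4-/- (adjusted p = 0.0103) and -0.36 ± 0.083 in Pad2-/- (adjusted p = 0.0617), and only the first was called. Pola2 had 34.1, 27.8 and 41.0 RPKM in WT and 19.8, 22.7 and 25.3 RPKM in Pad4-/- (-0.58 ± 0.12, adjusted p = 0.0123). Mcm5 had 89.4, 75.3 and 104 RPKM in WT and 55.2, 66.3 and 63.0 RPKM in Pad4-/- (-0.53 ± 0.12, adjusted p = 0.0156). Neither gene overlapped between these groups.

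By role, the members called lower in Pad4-/- were 4 of the 6 ring subunits (Mcm3, Mcm4, Mcm5 and Mcm6), both Mcm8 and Mcm10, and 3 of 5 clamp and loader genes (Pcna, Rfc3 and Rfc5). They also included Gins1 and Gins2 of 5 helicase activation genes, Rrm1 and Dut of 4 in nucleotide supply, and Chaf1b and Uhrf1 of 3 chromatin genes. Licensing, primase, the extending polymerases and fork protection gave 1 each: Cdc6, Pola2, Pold2 and Tipin. None of the 3 Okazaki fragment genes passed limma's threshold, although all 3 had an unadjusted p under 0.05. The largest log2 differences among the called members were those of Chaf1b, the middle subunit of chromatin assembly factor 1, at -0.74 ± 0.18 (adjusted p = 0.0265), and Cdc6 at -0.73 ± 0.21 (adjusted p = 0.049). Chaf1b had 21.2, 16.8 and 27.1 RPKM in WT and 11.6, 13.1 and 13.03 RPKM in Pad4-/-. Pcna showed a log2 difference of -0.37 (adjusted p = 0.0464), from 379, 329 and 387 RPKM in WT to 285, 276 and 284 RPKM in Pad4-/-. Of the 38 other replication genes 5 were lower in Pad4-/-, among them the origin subunit Orc2 (-0.62), the polymerase epsilon subunit Pole3 (-0.56), the nuclease-helicase Dna2 (-0.55) and thymidylate kinase Dtymk (-0.50), named after their values were seen.

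In Pad2-/- imiquimod spleens 0 of the 44 members passed limma's threshold against WT (all genes 0.484%), and 14 had an unadjusted p under 0.05 (all genes 15.6%). All 44 log2 differences were below 0, with a median of -0.22 against -0.06 for all genes. Every Pad2-/- library was below every WT library for 5 members, Mcm8, Gins2, Pold2, Rfc2 and Rfc5, and over all genes 11.2% did not overlap, in either direction. Pold2 had 41.3, 35.8 and 53.0 RPKM in WT and 33.6, 29.2 and 31.3 RPKM in Pad2-/- (-0.44 ± 0.12, adjusted p = 0.0972). Rfc3 had 29.9, 24.5 and 30.3 RPKM in WT and 24.9, 20.9 and 22.1 RPKM in Pad2-/- (-0.31 ± 0.088, adjusted p = 0.107). Several libraries moved this comparison. Without Pad2-/- replicate 2, 38 of 44 differences were below 0, the median was -0.12 against -0.11 for all genes, and only Rfc5 was called (adjusted p = 0.0460). The median was -0.11 without WT replicate 3, -0.33 with 8 members called without WT replicate 2, and -0.36 with Pcna and Rfc5 called without Pad2-/- replicate 1. Median-ratio scaling gave a median of -0.14. Array weights gave 27 called members, where 2751 of all genes were called in either direction. Of all genes, 628 were called without WT replicate 2, 98 without Pad2-/- replicate 1 and 734 without Pad2-/- replicate 2. The main fit called 58. The summed RPKM of the mitotic markers was 588, 360 and 426 in these libraries, in the same order as the mean level of the members, and 0 of the 12 were called. That of the erythroblast markers was 1776, 189 and 1170, also in that order, and its mean was 1045 against 622 in WT. The sums of the neutrophil precursor markers (675, 758 and 292) and of the B cell markers (519, 1076 and 696) were not in that order. Their means were 575 and 764, against 674 and 860 in WT. All 5 plasma cell markers (median -0.61) and all 5 germinal centre B cell markers (median -0.32) had differences below 0, with 0 called, and 1 of 6 T cell markers was called higher. The part of these markers in the result was not tested.

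Whether the response to imiquimod itself differed between genotypes was tested as the difference of the log2 changes. For Pad2-/- minus WT, 0 of 44 members passed limma's threshold (all genes 0.0334%) and 19 had an unadjusted p under 0.05 (all genes 7.81%). For Pad4-/- minus WT, 0 of 44 passed (all genes 0.0668%) and 22 had an unadjusted p under 0.05 (all genes 14.4%). The response was smaller than in WT for all 44 members in both knockouts, with a median difference of -0.35 in Pad2-/- (all genes -0.09) and -0.45 in Pad4-/- (all genes -0.08). The smallest p-values in Pad2-/- were those of Rfc5 (-0.49 ± 0.12, adjusted p = 0.463), Rfc3 (-0.43) and Pold2 (-0.56). In Pad4-/- they were those of Pold2 (-0.72 ± 0.17, adjusted p = 0.114), Pola2 (-0.69 ± 0.17, adjusted p = 0.118) and Rfc5 (-0.46 ± 0.12, adjusted p = 0.125). A difference in response between genotypes was therefore not established for any single member by this test. Array weights gave 34 called members in Pad2-/- and 13 in Pad4-/-, where 1737 and 665 of all genes were called. Leaving out WT imiquimod replicate 2 gave 12 in Pad4-/-, where 757 of all genes were called. The main fits called 4 and 8 of all genes. Other alternatives weakened the difference in response. Without WT imiquimod replicate 3, limma's unadjusted p was under 0.05 for 6 members in Pad2-/- and 13 in Pad4-/-. Quantile normalization gave 9 and 10 such members, and median-ratio scaling 8 and 13. In these fits 43 members were below 0 in Pad2-/- and 41 or 42 in Pad4-/-.

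The lymph node libraries were all from treated mice and varied widely within a genotype. The mean log2 level of the members was 4.16, 3.94, 3.68 and 3.55 in the WT libraries, 3.61, 3.53, 3.73 and 3.24 in Pad2-/-, and 4.30, 3.79, 3.24 and 3.31 in the libraries labelled Pad4-/-. The order was shared by the members: WT replicate 1 was the highest of its group for 41 of them, and labelled Pad4-/- replicate 1 for 43. The library numbers in the labels fall into the sets 17 to 24 and 29 to 32, and replicates 3 and 4 of WT and of labelled Pad4-/- are in the second set. In WT the mean log2 level was 4.05 in the first set and 3.61 in the second, in labelled Pad4-/- 4.05 and 3.28, and all Pad2-/- libraries (mean 3.53) were in the first set. Labelled Pad4-/- replicates 3 and 4 go against their label: Padi4 had 0.607 and 1.1702 RPKM there, 0.0958 and 0.131 RPKM in replicates 1 and 2, and 0.679 to 1.05 RPKM in WT. Padi2 had 5.18 to 5.77 RPKM in WT and 0.425 to 1.01 RPKM in Pad2-/- lymph nodes. Padi4 had 8.16, 1.30, 7.91 and 4.85 RPKM in those Pad2-/- libraries. The summed RPKM of the mitotic markers stood in the same order as the mean level of the members within each genotype label, with 260, 192, 138 and 108 in WT, 121, 104, 153 and 99.2 in Pad2-/-, and 256, 155, 70.0 and 88.5 in labelled Pad4-/-. That of the germinal centre B cell markers was 68.6, 44.7, 46.3 and 22.8 in WT, 41.1, 29.7, 51.1 and 29.4 in Pad2-/-, and 63.5, 59.4, 13.9 and 22.98 in labelled Pad4-/-. For the neutrophil precursor markers the summed RPKM was 3.71 to 17.9 in WT and 5.78 to 20.6 in labelled Pad4-/-. In Pad2-/- it was 56.1, 13.6, 75.2 and 357. The part of these markers and library sets in the results was not tested.

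**Figure D5:**
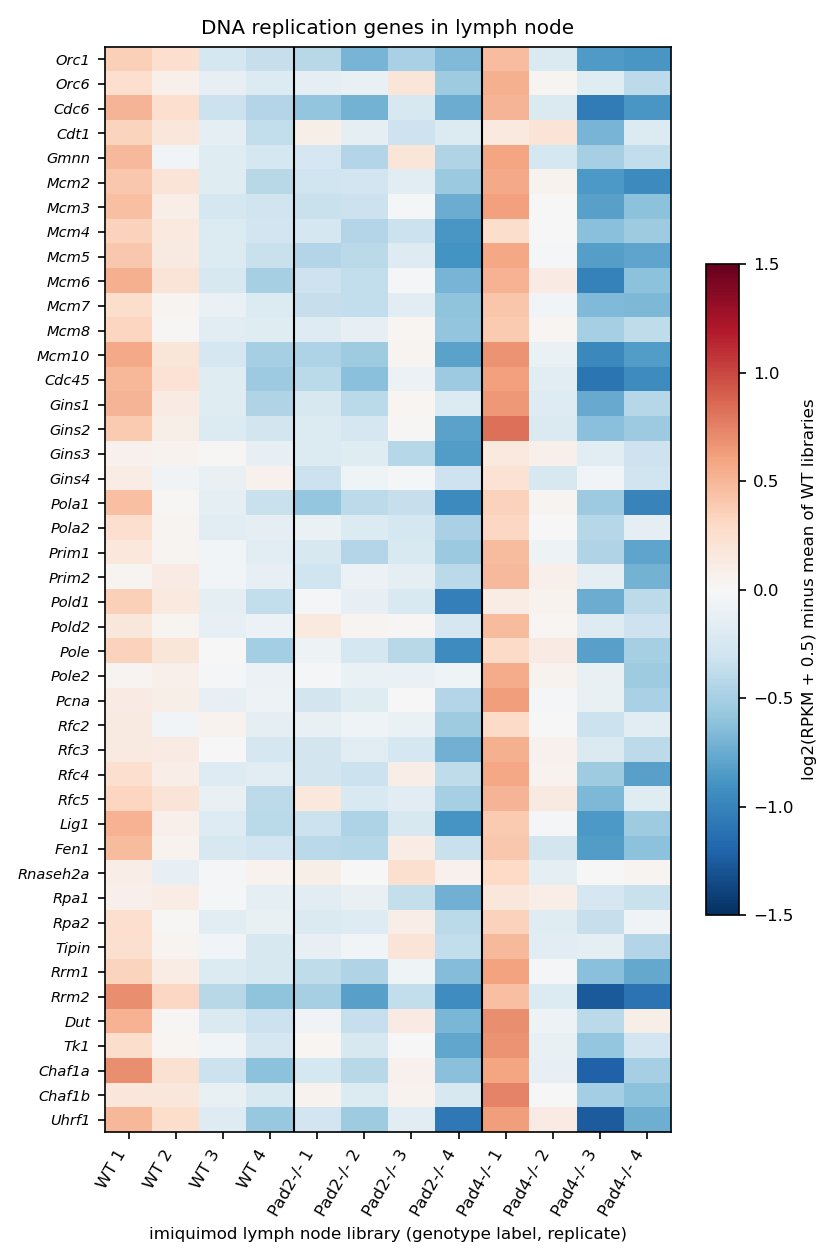
Heat map of log2(RPKM + 0.5) minus the mean of the 4 WT libraries for the 44 members (rows) in the 12 imiquimod lymph node libraries (columns, by genotype label and replicate), on a colour scale from blue (lower) to red (higher). Whole columns share a colour, from labelled Pad4-/- replicate 1 (mostly red, up to 0.83) to labelled Pad4-/- replicates 3 and 4 (mostly blue, down to -1.26).

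In lymph node 0 of the 44 members passed limma's threshold in Pad2-/- against WT (all genes 0.464%), and 4 had an unadjusted p under 0.05, a smaller share than over all genes (11.9%). The median log2 difference was -0.31 (all genes -0.12). It was nearer 0 under several alternatives: -0.18 without WT replicate 1, -0.21 without Pad2-/- replicate 4, which left 0 members with an unadjusted p under 0.05, -0.19 with median-ratio scaling, and -0.20 with quantile normalization and with array weights. Others moved it away from 0: -0.40 without WT replicate 4, -0.39 without Pad2-/- replicate 3 and -0.36 without WT replicate 3. Limma's unadjusted p was under 0.05 for 14 members with the replicate block and 13 with only the compared groups. Gins3 had 4.38, 4.34, 4.24 and 3.79 RPKM in WT and 3.56, 3.62, 2.97 and 2.12 RPKM in Pad2-/-, without overlap (-0.41 ± 0.16, adjusted p = 0.37). Mcm4 had 35.3, 30.8, 23.9 and 22.6 RPKM in WT and 22.96, 20.2, 22.1 and 14.9 RPKM in Pad2-/- (-0.48 ± 0.21, adjusted p = 0.401). Rpa1 had 42.5, 43.4, 39.3 and 36.2 RPKM in WT and 35.7, 37.1, 31.4 and 24.2 RPKM in Pad2-/- (-0.34 ± 0.15, adjusted p = 0.408). Mcm4 and Rpa1 overlapped between the groups. With the number set as a term, an alternative chosen after seeing the data, 5 members were lower in Pad2-/-: Rrm2 (-1.24, adjusted p = 0.0316), Cdc6 (-1.04), Orc1 (-0.96), Pola1 (-0.92) and Mcm4 (-0.78, adjusted p = 0.0395). That fit had a member median of -0.57, and 135 of all genes were called in either direction. In that fit the difference between the sets comes from WT and from the libraries labelled Pad4-/-, whose second set is the doubted pair described above.

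For the libraries labelled Pad4-/- against WT, 0 of 44 members passed limma's threshold (all genes 0.00814%) and 0 had an unadjusted p under 0.05 (all genes 3.95%). The median log2 difference was -0.16 (all genes 0.00), and without the doubted replicates 3 and 4 it was 0.22, with 1 of 44 members below 0 and 0 called. Rrm2 had 51.3, 39.1, 23.4 and 20.4 RPKM in WT and 43.2, 27.1, 12.8 and 14.3 RPKM in labelled Pad4-/- (-0.53 ± 0.35, adjusted p = 1). Without the doubted libraries its difference was 0.13. Orc1 had 2.29, 2.09, 1.31 and 1.21 RPKM in WT and 2.50, 1.37, 0.709 and 0.688 RPKM in labelled Pad4-/- (-0.37 ± 0.27, and 0.13 without them). Fen1 had 38.5, 28.5, 23.3 and 22.4 RPKM in WT and 36.6, 22.7, 15.2 and 17.8 RPKM in labelled Pad4-/- (-0.33 ± 0.24, and 0.064 without them). The direction of the 3 genes thus turned on libraries that go against their label. Those libraries are also the whole second number set of that label, while the WT libraries of both sets were kept. The doubted label and the number set cannot be told apart here. Within the first set the mean log2 level of the members was 4.05 in WT and 4.05 in labelled Pad4-/-. The ratio of Rrm2 to Rrm1 was 1.41 (1.07 to 1.80) in WT lymph nodes and 1.15 (1.07 to 1.27) in Pad2-/-. In labelled Pad4-/- it was 1.11 (0.880 to 1.24). Without a control group in this tissue, a change of the ratio with imiquimod could not be assessed. Of the members, Orc1 and Rpa2 lie on chromosome 4 with Padi2 and Padi4, 32.3 and 8.14 Mb from Padi2 (GRCm38.p6).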

How the data were processed

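Spleen and lymph node RNA was poly(A)-selected and made into libraries with the NEBNext Ultra II kit, per the labels' protocols. Per the submitters' processing notes, the tools were TopHat2 2.1.0 and bcl2fastq 1.17.1 with build mm10. Which counter and annotation were used, and whether strand was, is not given in the sources used here. RPKM values per gene were deposited by the authors, 1 table per tissue, with 24957 genes each. Read depth is unknown, so no counting error is given. Per-library RPKM sums ran from 350314 to 506819 in spleen and 368211 to 468564 in lymph node, 0 libraries had identical values, and 0 sample columns were left unused.

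Computed from them was log2(RPKM + 0.5), tested with limma 3.58.1 (lmFit, eBayes with trend; R 4.3.3; two-sided) over all groups of a tissue, without batch terms. Genes needed at least 1 RPKM in 3 spleen or 4 lymph node libraries, which left 11982 and 12285. Adjusted p-values are limma's with Benjamini-Hochberg adjustment over all genes tested, with a threshold of 0.05. Fold changes on this scale understate the change of low genes. The scripts were tested on simulated data. Ratios, levels and promoter matches were computed in Python 3.11.15 with pandas 2.3.3.

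The members and the other gene lists were chosen with earlier results of these data known. Genes named with values were, per role, the member with the highest mean spleen RPKM and the one with the largest WT response. Also named were, per comparison, the 3 smallest p-values, the 3 smallest WT responses, members without a call in an imiquimod response, and genes called against the majority; 1 gene so chosen is not reported here. Alternatives were pseudocounts of 0.1 and 1, no filter, a mean of at least 2 RPKM, quantile normalization, median-ratio scaling, array weights, a replicate block, only the compared groups, each library left out, doubted libraries left out and, added later, the library number set as a term.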

Additional observations from a re-analysis of the deposited data

Results flagged for a closer look

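In the 3 groups of 4 lymph node libraries, 3 values stood apart from the rest of their group, of 135 sets examined (the 44 members and their mean level in each group), by the size of their gap to the nearest library against the range of the group. Rfc2, the clamp loader subunit, was lowest in Pad2-/- replicate 4, at 32.4 RPKM, where the other 3 libraries had 43.9, 45.1 and 44.1 RPKM. Fen1, the flap nuclease, was highest in Pad2-/- replicate 3, at 29.9 RPKM, where the others had 20.7, 20.3 and 21.8 RPKM. Gmnn, the inhibitor of Cdt1, was highest in labelled Pad4-/- replicate 1, at 34.7 RPKM, where the others had 18.9, 16.1 and 17.5 RPKM. Chance flags about 1 in 20 sets, which is more than were found.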

How the results depend on the processing

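The imiquimod responses had 42 to 44 called members under each alternative run; leaving out single libraries gave 43 to 44 in WT, 43 to 43 in Pad2-/- and 42 to 43 in Pad4-/-. Quantile normalization moved the median of all genes by over 0.1 on the log2 scale (from 0.06 to -0.13 in WT) and gave member medians of 1.73 in WT and 1.43 in Pad4-/-, a median response difference of -0.29 for Pad4-/-, and a log2 response of Pold1 in WT of -0.029; the cause was not tested. Against WT in control spleen, Pad2-/- had 1 called member (Rrm2) with array weights, where 99 of all genes were called. It had the same member in a fit of the compared groups alone, where 45 of all genes were. Pad4-/- had 4 called members with array weights (Cdc45, Rfc4, Pold2 and Rpa1), where 1758 of all genes were called. It had 1 (Rfc4) in the fit of the compared groups alone, where 1516 of all genes were. After imiquimod, Pad2-/- against WT had 27 with array weights (2751 of all genes) and 0 to 8 with single libraries left out. Pad4-/- against WT had 8 with no filter (622 of all genes) and 10 after quantile normalization (844 of all genes). It had 0 in a fit of the compared groups alone (5 of all genes) and 0 to 35 with single libraries left out. The response differences had 34 (Pad2-/-) and 13 (Pad4-/-) called members with array weights (1737 and 665 of all genes). Pad4-/- had 0 to 12 with single libraries left out. In lymph node, the number set as a term gave a median of -0.57 and 5 called members in Pad2-/- (135 of all genes). Without the doubted Pad4-/- libraries the log2 differences of Rrm2, Orc1 and Fen1 were 0.13, 0.13 and 0.064. Depth is unknown, so what it limits could not be assessed.

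The replicate numbers were not taken to pair the libraries: the correlation of same-numbered libraries' deviations ran from -0.478 to 0.612 in spleen, with 14 of 45 pairs over 0.1, and from -0.301 to 0.394 in lymph node, with 5 of 12. In spleen 12 of 18 libraries correlated best with a library of their own number, and in lymph node 3 of 12, a hint from the data and not the design. With the replicate block, the called members in Pad4-/- against WT after imiquimod went from 19 to 14, and the count was the same in the other comparisons.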
